A study of Mus musculus with 9 samples.

Results

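Retinas with retinal vein occlusion (RVO) were compared with untreated retinas by RNAseq. Of the 9 samples of the study, 6 were taken by their labels: 3 RVO samples, in which every large vein of the treated eye had been closed by laser, and 3 untreated samples. Each sample was a pool of 6 retinas from 6 C57BL/6J mice of 12 weeks, and n = 3 refers to pools. RVO mice were anesthetized with ketamine and xylazine and received eosin Y, a photosensitizer, before the laser, and their retinas were taken at d2. The study reports that part of the closed veins re-opened within days, so some may have been open again at d2. Untreated pools came from other mice that were not lasered, and no eosin Y or anesthesia is given for them. By the study's methods, mice of both groups had fundus imaging and angiography with injected rhodamine B before the retinas were taken. The effects of laser burn, eosin Y, anesthesia and closed veins cannot be told apart in this comparison. The fellow eyes of the RVO mice, lasered between the large vessels (control), were 3 further pools, which are shown for comparison and entered only an alternative fit to all 9 samples. Of 48679 names in the count table, 16380 had enough counts in these 6 samples to be tested.

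In the retina, rods and cones turn light into a signal that bipolar cells carry to the ganglion cells, whose axons form the optic nerve. Horizontal and amacrine cells shape this signal, and Müller cells, the glia that span the tissue, clear transmitters, buffer potassium and become reactive after injury. The inner layers of the mouse retina are drained by the retinal veins, while the photoreceptors are supplied mainly by the choroid. RVO is a clinical cause of retinal ischemia, and lack of oxygen stabilizes the HIF transcription factors, which switch on genes of glycolysis, oxygen supply and vessel growth.

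At d2, genes of retinal neurons were lower in RVO eyes than in untreated eyes, and genes of glial reaction, inflammation, interferon signaling and protein stress were higher. All 8 tested mitochondrially encoded genes of the respiratory chain were lower. Of all genes tested, 27.4% were called higher and 24.6% lower (adjusted p under 0.01 in edgeR), 52.1% together. Large changes were mostly increases. Over 4-fold by the fitted values, 941 genes were higher (5.74%) and 336 were lower (2.05%). Over 16-fold, 226 genes were higher and 3 were lower. For 73.4% of genes, every RVO value lay on the same side of every untreated value. Of the genes called higher, 215 had at most 3 counts in each untreated pool. They passed the filter on counts only through the RVO pools, so they could not have been called lower. Where such genes are named, their fold changes appear as minimum values. The counts of genes over a fold and the list medians include their fitted values, which are uncertain. Gene lists also hold members with at most 3 counts in every pool of 1 group, whose direction was fixed beforehand. They were 4 of 18 tested IL-6 family genes, 3 of 19 monocyte and macrophage, 3 of 19 cell death and 3 of 21 cell cycle genes. They were also 3 of 15 matrix proteases and inhibitors, and 2 of 18 genes each for gliosis and interferon response. A single gene called lower, Spink13, had at most 3 counts in each RVO pool.

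The libraries differed in ways that run along with the groups. Untreated pools held 12377572 to 15245869 counts and RVO pools 21022997 to 28993921. When genes were split into 4 equal groups by GC content, the lowest group had a higher median level than the highest in each untreated pool, by 0.67 to 0.86 on the log2 scale. In the RVO pools the order was the reverse, with a difference of -0.35 to -0.20, and in the control pools it was -0.18 to -0.12. Accordingly, 49.2% of the genes richest in GC were called higher in RVO eyes and 6.9% lower, while of the genes poorest in GC 8.87% were higher and 48.8% lower. Whether this trend belongs to the tissue or to the libraries cannot be told apart, because it separates the untreated pools from all the others. The fit was therefore repeated after the trends with GC content and length had been removed (trend-removed values). These are given for the main lists and wherever a call named below was gained or lost. With them 4004 genes were higher and 2996 lower, and 74 genes were called in the opposite direction.

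**Figure D1:**
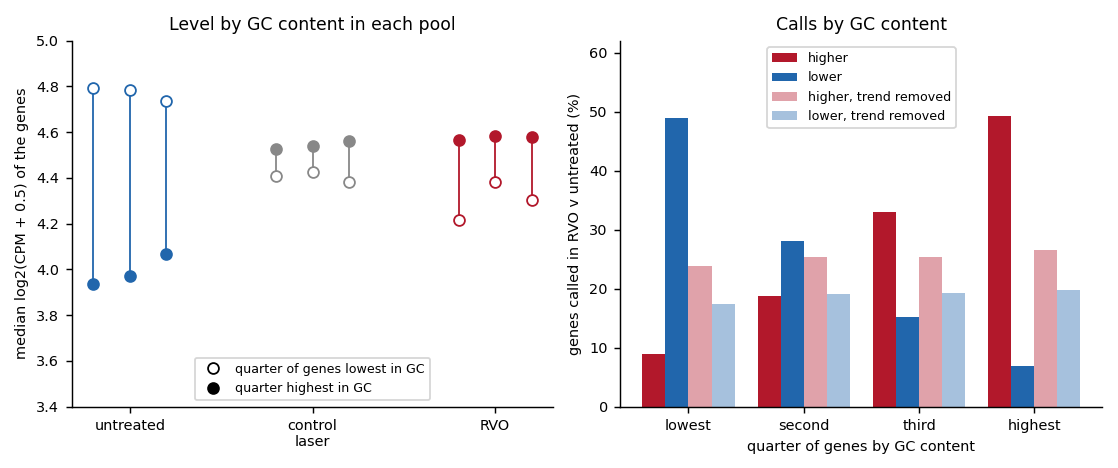
Left, the median level, as log2(CPM + 0.5), of the lowest (open) and highest (filled) of 4 equal groups of genes by GC content in each pool; each line joins the values of 1 pool. The 3 untreated pools show a gap of 0.67 to 0.86 in one direction and the other 6 pools a smaller gap in the other. Right, the percent of genes called in RVO against untreated eyes in the 4 groups, before and after the trend was removed: 49.2% of the highest group were called higher before and 26.5% after.

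RVO replicate 2 stood apart from the other RVO pools. Across genes, its levels correlated at 0.932 to 0.939 with the untreated pools, those of RVO replicate 1 at 0.897 to 0.906 and those of RVO replicate 3 at 0.908 to 0.916. It had milder losses of neuronal genes, fewer neutrophil counts and far more lens counts. Without it, 5436 genes were higher and 5055 lower. In what follows, levels are in CPM (counts scaled for library size), and log2 fold changes are RVO minus untreated, with ± for their standard error. CPM are not corrected for gene length, so levels are compared only within a gene or list.

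Genes of rods, the cells of dim light vision and most of the retina's cells, were mostly lower in RVO eyes. Of 26 rod genes, 23 were lower and 1 was higher, with a median log2 fold change of -0.72 against 0.01 over all genes tested. Gnat1, the alpha subunit of rod transducin (chr9:107674474-107679712, GRCm38), had 11096, 11437 and 10524 CPM in the 3 RVO pools and 26927, 25924 and 25230.5 CPM in the untreated pools. The groups did not overlap, RVO replicate 2 was like the other RVO pools, and the control pools lay between the groups at 15649.6, 13424 and 16118 CPM. The level was 2.31-fold lower in RVO eyes (-1.21 ± 0.08, edgeR's adjusted p = 1.31e-05). The transducin partners Gnb1 and Gngt1 fell by 1.12 and 1.66 on the log2 scale. Among the calcium feedback genes, Guca1a, an activator of guanylate cyclase, had -1.39 ± 0.08, and the cyclase gene Gucy2f had -1.56 ± 0.10. Nrl and Nr2e3, the transcription factors that set rod identity, had -0.64 and -0.99. Sag (arrestin, which ends the light response) had 4322 ± 124 CPM in RVO eyes and 8092 ± 256 CPM in untreated eyes (SD, n = 3).

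Rom1, a structural protein of the outer segment disc, was the rod gene called higher, at 0.41, and its trend-removed value was -0.12 and not called. Its partner Prph2 was not called either way (-0.30), but its trend-removed value of -0.62 was called lower. With the trend removed, 23 of 26 rod genes were lower and 0 higher, and the median was -0.78. Rp1, a protein of the axoneme, went from -0.69 to 0.06 and lost its call. In a pool of whole retinas, fewer cells of a type and less RNA per cell cannot be told apart.

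Some genes of photoreceptors moved the other way. Rbp3, which encodes the retinoid carrier of the space around the outer segments, rose 1.49-fold, from 5709.9 ± 255 to 8329 ± 564 CPM. Impg2, a proteoglycan of the same space, rose 2.3-fold. Gnb3, the transducin beta subunit of cones and ON bipolar cells, had 1333, 1042 and 1265 CPM in RVO pools and 341, 332 and 342 CPM in untreated pools. It rose by 1.88 ± 0.10, or 1.37 with the trend removed, and was the member called higher among 13 cone genes. Of the others, 10 were lower, and the median of the list was -1.08. Opn1sw, the short wavelength cone opsin, had 128, 216 and 90.8 CPM in RVO pools and 535, 545 and 582 CPM in untreated pools. Arr3, the cone arrestin, fell 4.39-fold, and Cngb3, a subunit of the cone channel, 4.84-fold. Trend-removed, 10 cone genes were lower and 2 higher (Gnb3 and Pde6h).

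A motif of photoreceptor genes was frequent in the rod list, counted over members called or not, which describes the list and not its response. CRX and OTX2, the factors that drive photoreceptor genes, bind TAATCC, and this motif stood on either strand in the promoter window of 8 of 17 rod genes with a window (47.1%), compared with 7.21% of all tested genes. Windows reach from 250 bases before to 50 after the RefSeq start (GRCm38.p6). The bases before the start are shown for Sag and Gucy2f, with every match (TAATCC or its complement GGATTA) in capitals, because both genes were among those lower in RVO eyes. They lie at chr1:87803430-87803679, strand + and at chrX:142196937-142197186, strand -.
Sag: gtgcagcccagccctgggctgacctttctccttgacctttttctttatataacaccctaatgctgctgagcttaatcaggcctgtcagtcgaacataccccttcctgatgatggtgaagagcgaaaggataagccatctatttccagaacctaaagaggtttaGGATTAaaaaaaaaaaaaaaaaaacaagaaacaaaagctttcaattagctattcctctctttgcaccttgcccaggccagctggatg
Gucy2f: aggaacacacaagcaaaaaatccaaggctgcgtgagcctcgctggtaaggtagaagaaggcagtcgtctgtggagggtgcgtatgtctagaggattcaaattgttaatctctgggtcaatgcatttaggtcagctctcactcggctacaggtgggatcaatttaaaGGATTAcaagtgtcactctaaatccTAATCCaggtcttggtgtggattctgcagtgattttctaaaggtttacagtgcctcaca
The motif was about as frequent in genes over 4-fold lower (8.65%) and over 4-fold higher (8.05%) as in all tested genes.

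Lists of inner retinal neuron types had lower medians than that of rods, a difference that was not tested. With the trend removed, their medians were -2.04 to -1.26, against -0.78 for rods. The cone median, at -1.27, lay within that range. The list of synapse and ribbon genes lay near the rods, with a median of -0.78, or -0.74 with the trend removed. Of 18 bipolar cell genes, 14 were lower and 0 higher, with a median of -1.53. Their summed level was 533, 1089.8 and 675 CPM in the RVO pools and 2020.0, 2061 and 1947 CPM in the untreated pools. RVO replicate 2 was thus the mildest, and the control pools had 1729, 1591 and 1717 CPM. Cabp5, a calcium binding protein of bipolar cells, had 17, 46 and 25.4 CPM in RVO and 145, 132 and 125 CPM in untreated pools. Vsx1, a transcription factor of cone bipolar cells, fell 5.66-fold and Grm6, the glutamate receptor of ON bipolar cells, 3.44-fold. Trpm1, the channel that Grm6 controls, had -0.98 and was not called. Without RVO replicate 2, 17 of the 18 were lower. Without RVO replicate 3, 4 were lower, and without any 1 untreated pool, 6.

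Genes of horizontal and amacrine cells showed the same direction. Calb1, a calcium buffer of horizontal cells (chr4:15881264-15908064), had 4.75, 31.1 and 12.8 CPM in RVO and 125, 112 and 113 CPM in untreated pools. The RVO values spread widely but all lay below the untreated ones, and the log2 fold change was -2.83 ± 0.54 (edgeR's adjusted p = 0.00202; trend-removed -2.04). Lhx1, a factor of horizontal cells, fell 5.37-fold. In all, 4 of 5 horizontal and 12 of 15 amacrine cell genes were lower, and 0 of either list were higher. Without untreated replicate 1, 2 of the horizontal cell genes were lower. Gad2 and Gad1, which make GABA in amacrine cells, had -1.88 and -1.33. Calb2 had -1.64. Slc17a8, the glutamate transporter of a rarer amacrine type, went against the list at 0.53 without being called, and with the trend removed it was called higher at 0.91.

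Of 18 ganglion cell genes, 16 were lower and 0 higher, with a median of -1.52 (-1.77 trend-removed). Sncg, gamma-synuclein, had 18.8, 53.6 and 27.3 CPM in RVO pools and 144, 129 and 120.3 CPM in untreated pools. Rbpms, an RNA binding protein that marks nearly all ganglion cells, fell 2.35-fold, Pou4f1 3.5-fold and the neurofilament gene Nefl 2.89-fold. Tubb3, a neuronal tubulin, had -0.06 ± 0.18 and Opn4, the pigment of the light-sensitive ganglion cells, -0.49 ± 0.36, and neither was called. In contrast, genes known to be induced in injured neurons were higher: 8 of 10 were called, among them Sprr1a (at least 28.5-fold), Ecel1 (25-fold) and Atf3 (11.7-fold). Gap43, a growth cone protein on the same list, had 0.12 and was not called.

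Genes for synaptic transmission were mostly lower. Of 17 GABA and glycine receptor subunits, 16 were lower, and of 17 glutamate receptor genes 13, with 0 higher in either list. Glra3, a glycine receptor subunit, had 2.29, 10.9 and 4.4 CPM in RVO and 47, 42.9 and 38.1 CPM in untreated pools, and fell 7.24-fold. Grm5, a metabotropic glutamate receptor, fell 5.42-fold. With the trend removed, the values were -1.83 and -1.86 in place of -2.86 and -2.44, and 15 members of the GABA and glycine list and 14 of the glutamate list were lower. Of 21 genes of synaptic vesicles and ribbons, 14 were lower. Snap25, which drives vesicle fusion, had 557, 999 and 674 CPM in RVO and 2911, 2756 and 2556 CPM in untreated pools. Ctbp2, whose Ribeye form builds the ribbon, was called higher at 0.47 but not with the trend removed (0.13). Syp, a vesicle protein, had 0.05 ± 0.06 and was called only with the trend removed, as higher (0.25).

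**Figure D2:**
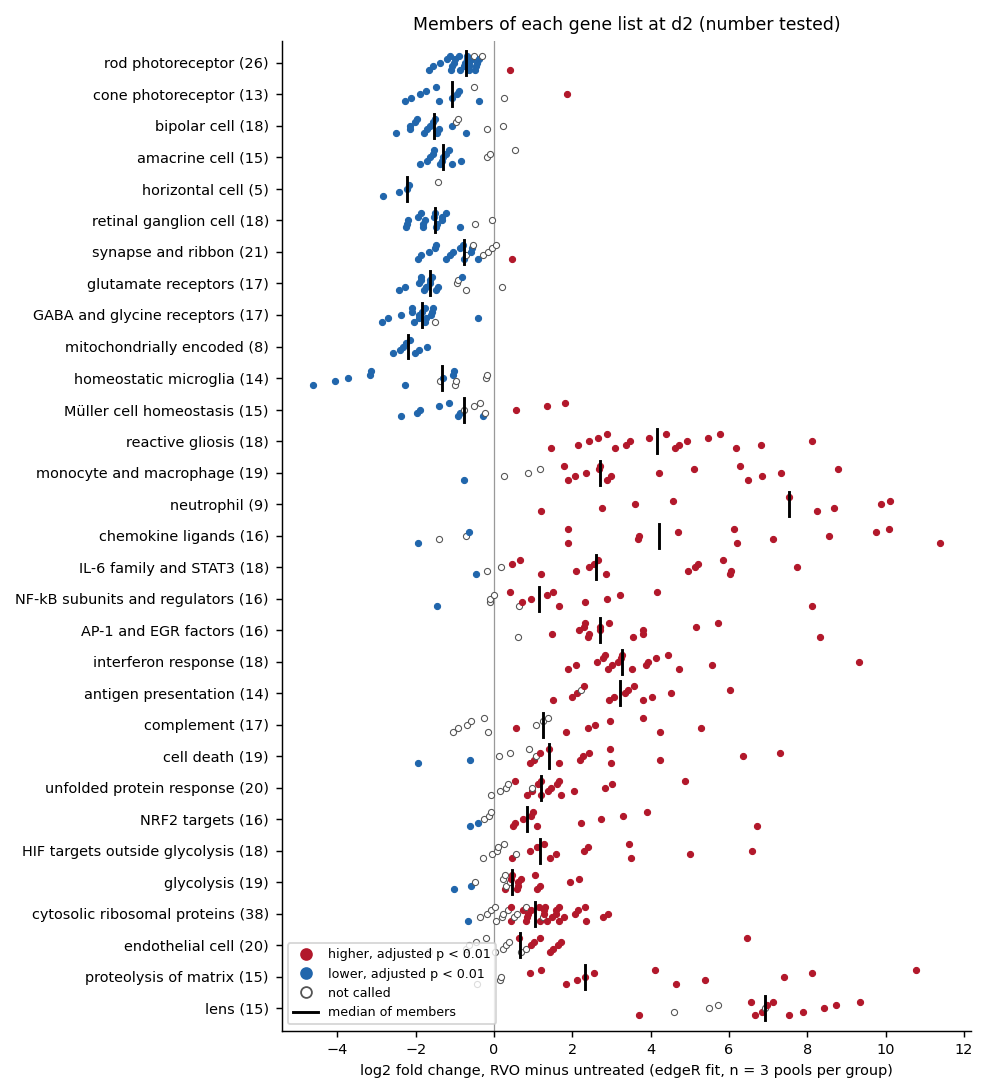
Log2 fold change of each tested member of 31 gene lists (RVO minus untreated, 3 pools each); filled points were called, open points were not, and bars are the medians of the lists. Neuronal lists lie to the left of 0, with medians from -2.22 to -0.72, and the lists of gliosis, interferon response and antigen presentation to the right, with medians from 3.21 to 4.17.

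Protein-coding transcripts made inside mitochondria had a lower sum in every RVO pool than in any untreated pool. The mitochondrial genome encodes core subunits of the respiratory chain, and its transcripts are abundant in photoreceptors. The 8 genes tested summed to 14570.2, 28258 and 19992 CPM in RVO pools and 105901, 87819 and 80023 CPM in untreated pools, and the control pools had 31555, 34533 and 30326 CPM. All 8 were lower, with a median of -2.19, and 7 with the trend removed, with a median of -1.59. Of 15 mitochondrial tRNA genes tested, 8 were lower and 0 higher, and of 2 mitochondrial rRNA genes 1 was lower. mt-Co1, a subunit of complex IV, had -2.14 ± 0.24, and mt-Nd6, of complex I, -2.58 ± 0.23. The mitochondrial share of all counts was 1.77% to 3.17% in RVO pools and 7.73% to 9.92% in untreated pools. Of the 13 protein-coding genes on the list, 5 had too few counts to be tested, so the list was not measured completely. Of these 5, mt-Co2, mt-Co3 and mt-Nd4l are listed at 0 in every sample. mt-Atp6 had 0 counts in the 6 pools compared, and mt-Atp8 had at most 6 in any pool. Nuclear genes of the respiratory chain did not share this direction. Of 24, 7 were higher and 3 lower, with a median of 0.14. Scaled by library size only, 12 were higher and 1 lower.

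Among genes known for the housekeeping functions of Müller cells, 8 of 15 were lower and 3 higher. Glul, glutamine synthetase, which turns glutamate taken up from synapses into glutamine, had 580.0, 748 and 626 CPM in RVO pools and 2677, 2615 and 2505 CPM in untreated pools. It fell 3.9-fold (-1.97 ± 0.10, edgeR's adjusted p = 5.00e-06), and its trend-removed value was -1.99. The water channel Aqp4 had -1.40, but -0.86 and no call with the trend removed, and the potassium channel Kcnj2 had -1.88. Kcnj10, the main potassium channel of these cells, had -0.35 ± 0.25 and the glutamate transporter Slc1a3 -0.51 ± 0.20, and neither was called. Sox9 and Sox2, transcription factors that Müller cells share with progenitors, went the other way with 1.82 and 1.35. The count of lower genes was 12 without RVO replicate 2 and 4 or 5 without RVO replicate 3 or any 1 untreated pool.

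All 18 genes of reactive gliosis were higher, with a median of 4.17 and the same count with the trend removed. Their sum was 5008, 5098 and 5182 CPM in RVO pools and 575, 548 and 518 CPM in untreated pools, so that RVO replicate 2 did not stand apart here. Gfap, the intermediate filament used as a marker of gliosis, had 159, 256 and 225 CPM in RVO pools, 21.1, 21.2 and 20.7 CPM in untreated pools and 218, 358 and 305 CPM in control pools. Nes, the filament of neural progenitors, rose 30.5-fold and Vim 7.42-fold. Edn2, an endothelin made by stressed photoreceptors, rose 71.9-fold, and Ednrb, its receptor on Müller cells, 8.49-fold. Fgf2, a growth factor that protects photoreceptors, had 379.8 ± 39.9 CPM in RVO eyes and 35.2 ± 0.925 CPM in untreated eyes. Chil1, a secreted glycoprotein of reactive glia, had 785, 466 and 575 CPM in RVO pools and 17.8, 15.9 and 19.1 CPM in untreated pools. Neurog2, a proneural factor, rose 8.68-fold, and Ccnd1, the cyclin of the first phase of the cycle, 10.1-fold.

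**Figure D3:**
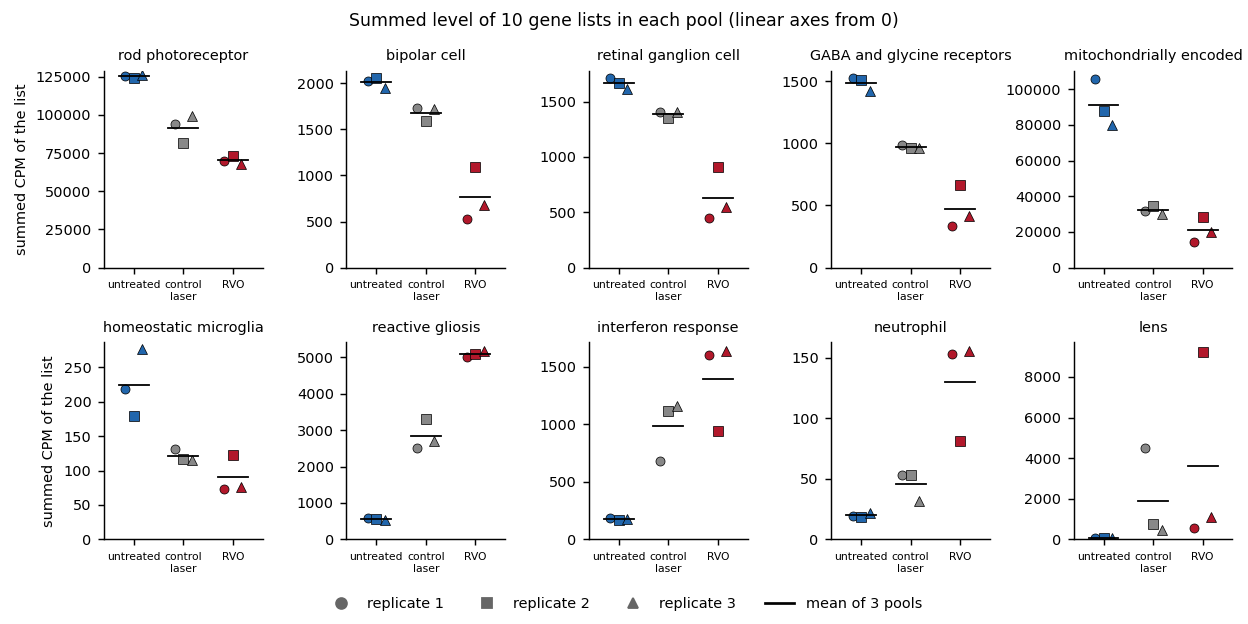
Summed CPM of the members of 10 gene lists in each pool (linear axes from 0; symbols mark the replicate number, bars the mean of 3 pools). Untreated and RVO pools do not overlap in any of the 10 panels; RVO replicate 2 lies nearest to the untreated pools for bipolar, ganglion cell and receptor genes, for interferon and neutrophil genes, and for mitochondrially encoded and microglial genes, and has the highest lens sum; the neutrophil sums of RVO replicates 1 to 3 are 153, 81 and 156 CPM.

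Among immune cells, genes of resting microglia fell while those of other myeloid cells rose. Of 14 homeostatic microglia genes, 9 were lower and 0 higher. P2ry12, the purine receptor of resting microglia, had the largest fall of all genes with counts in each group, at -4.62. Siglech had 0.255, 0.637 and 0.0879 CPM in RVO pools and 4.18, 4.45 and 8.14 CPM in untreated pools, Gpr34 fell 13.3-fold and Tmem119 8.88-fold. The complement genes of microglia, C1qa, C1qb and C1qc, were not called (-0.15, -0.58 and -0.69). With the trend removed, C1qb and C1qc were called lower at -1.13 and -1.25.

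Of 19 monocyte and macrophage genes, 15 were higher and 1 lower. Lyz2, lysozyme, had 48.7, 57.8 and 60.9 CPM in RVO pools and 3.72, 2.5 and 3.07 CPM in untreated pools. Ccr2, the receptor that draws monocytes to Ccl2, was at least 13.7-fold higher. Gpnmb rose 7.92-fold, Spp1 6.51-fold and Itgam 4.21-fold. Fcgr3, an Fc receptor, was the member called lower (-0.77), and this call was lost without any 1 untreated pool or RVO replicate 3. All 9 neutrophil genes tested were higher. Of these, 6 had at most 3 counts in each untreated pool and were tested only because of their RVO counts, so their direction was fixed beforehand. Cxcr2, the chemokine receptor of neutrophils, had 8.31, 4.59 and 8.49 CPM in RVO pools and 0 counts in untreated pools, at least a 26.2-fold rise. Csf3r, the G-CSF receptor, had 18.5, 12.4 and 19.3 CPM against 1.09, 0.469 and 0.643 CPM. Another 6 of the 15 genes on the list had too few counts to be tested, among them Ly6g, Elane and Mpo, each with at most 5 counts in any of the 6 pools. None of 11 lymphocyte genes had enough counts to be tested, and Cd3e had at most 3 counts in any pool.

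Most ligands that attract these cells rose. Of 16 chemokine genes, 12 were higher and 2 lower. Of the 16, 7 had at most 3 counts in every pool of 1 group and were tested only because of the other group. Cxcl2, which attracts neutrophils through Cxcr2 (chr5:90903871-90905938), had 26.4, 4.59 and 20.4 CPM in RVO pools and 0 counts in every untreated pool, at least 63-fold higher. Cxcl1 was at least 25.6-fold higher and Ccl7, which draws monocytes, at least 20.3-fold. Cxcl12, made by stromal and vessel cells, rose 3.7-fold. Cxcl14, which is expressed in neurons as well, fell 3.81-fold and Cxcl16 1.56-fold. Without RVO replicate 2, 4 chemokine genes were lower, and without RVO replicate 3 or untreated replicate 1, 1. The promoters of Cxcl1 and Cxcl2 are shown as examples with the NF-kB motif GGANTTTCC in capitals, on either strand, up to the first annotated base of the gene, at chr5:90890995-90891240, strand + and chr5:90903649-90903870, strand +.
Cxcl1: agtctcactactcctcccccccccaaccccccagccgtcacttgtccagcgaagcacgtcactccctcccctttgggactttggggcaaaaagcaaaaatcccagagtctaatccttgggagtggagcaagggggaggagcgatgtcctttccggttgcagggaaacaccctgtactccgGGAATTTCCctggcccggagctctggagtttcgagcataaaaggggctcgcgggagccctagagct
Cxcl2: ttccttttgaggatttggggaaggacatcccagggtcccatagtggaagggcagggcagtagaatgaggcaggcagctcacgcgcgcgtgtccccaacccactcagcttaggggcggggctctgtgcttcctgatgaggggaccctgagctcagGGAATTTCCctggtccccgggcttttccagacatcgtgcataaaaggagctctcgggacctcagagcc
The motif was present in 4.49% of 646 genes with a window that were over 4-fold higher, in 2.16% of 185 genes over 4-fold lower and in 1.63% of all tested genes. NF-kB is the transcription factor family of inflammatory signaling. Of its 16 subunits and regulators, 11 were higher. The subunits Nfkb2, Relb and Rela had 4.15, 3.23 and 1.66, while Nfkb1 had 0.40 and Rel 0.64, which was called only with the trend removed (1.23). Bcl3, a coactivator of this family, had the third highest fitted rise among genes with over 3 counts in an untreated pool (8.13), after the lens genes Crygc and Crygb. Tnfaip3, the deubiquitinase that dampens NF-kB, was the member called lower, from 383 ± 9.99 to 136 ± 7.51 CPM.

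Cytokines of the IL-6 family act through the receptor subunit gp130 and the factor STAT3 on Müller cells and photoreceptors. Of 18 members of this pathway, 15 were higher. Of the 18, 4 had at most 3 counts in every pool of 1 group and were tested only because of the other group. Among the ligands, Lif had 75, 47.9 and 72.4 CPM in RVO pools and 0.727, 1.17 and 1.07 CPM in untreated pools, Clcf1 rose 31.2-fold and Il11 at least 20.8-fold. Il6 and Cntf had too few counts to be tested, with 9 to 20 counts of Il6 in RVO pools and 0 or 1 in untreated pools. Among the receptors, Osmr had 2.65 and Il6st, which encodes gp130, 1.20, whereas Lifr had 0.18 and was called only with the trend removed (0.77). Stat3 itself had 473, 381 and 443 CPM in RVO pools and 62.4, 60.9 and 59.4 CPM in untreated pools. Its target and feedback inhibitor Socs3 rose 57.5-fold. Jak1, a kinase of the receptor, was called lower at -0.47.

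**Figure D4:**
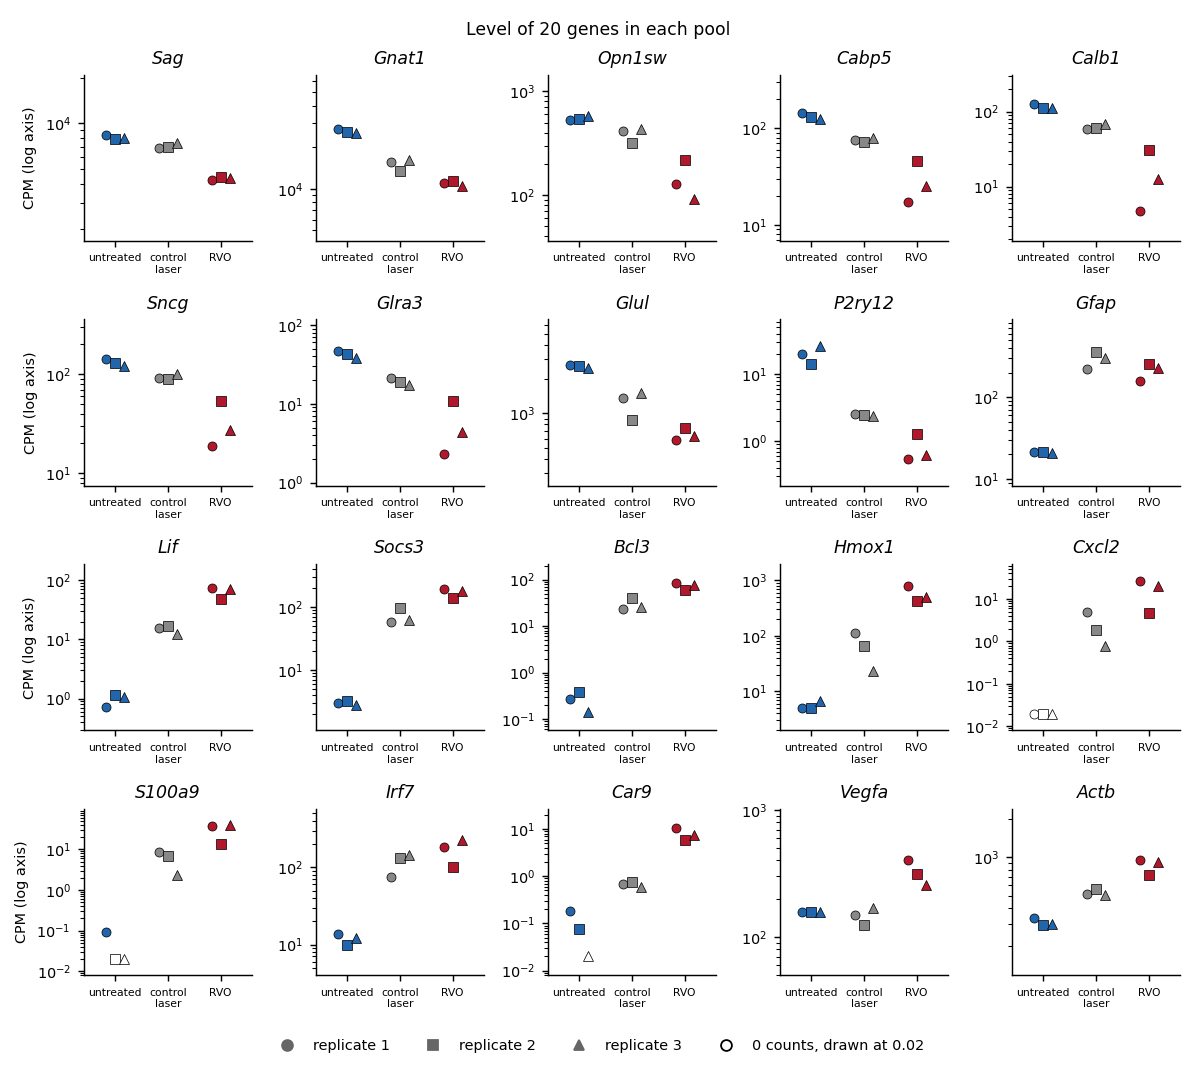
CPM of 20 genes in each pool on log axes (symbols mark the replicate number; open symbols at 0.02 stand for 0 counts). In all 20 panels the RVO pools do not overlap the untreated pools, but the genes were picked for display and 73.4% of all genes tested showed no overlap. Gnat1 and Glul are 2.31- and 3.9-fold lower, and Cxcl2 and S100a9 are at or near 0 counts in untreated pools.

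Immediate early genes, the first response of cells to many stimuli, were higher at d2. Of 16 AP-1 and EGR family genes, 15 were higher in RVO eyes, and the count was the same with any 1 pool left out and with the trend removed. Fosl1 had 128, 26.3 and 92.9 CPM in RVO pools and 1.63, 1.25 and 1.93 CPM in untreated pools, and Junb had 300.0 ± 50 CPM against 8.58 ± 1.49 CPM. Egr2 was at least 38.2-fold higher. Jund, the least inducible Jun gene, rose 2.81-fold, and Egr4 had 0.62 and was not called. The AP-1 motif TGANTCA was found for 13% of genes with a window that were over 4-fold higher, 9.19% of genes over 4-fold lower and 6.27% of all tested genes. It is shown in capitals in the promoter of Plaur, the urokinase receptor gene, at chr7:24462233-24462482, strand +.
Plaur: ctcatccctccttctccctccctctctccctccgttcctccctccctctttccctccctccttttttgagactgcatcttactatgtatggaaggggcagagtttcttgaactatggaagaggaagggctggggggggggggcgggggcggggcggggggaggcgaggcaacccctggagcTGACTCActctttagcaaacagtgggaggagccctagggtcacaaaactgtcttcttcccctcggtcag
Plaur had 35.4, 10.2 and 22.8 CPM in RVO pools and at most 2 counts in any untreated pool, at least 83.7-fold higher.

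All 18 genes of the interferon response were higher, also with any 1 pool left out and with the trend removed, and their median was 3.26. Irf7, the factor that amplifies interferon production, had 183, 101 and 228 CPM in RVO pools and 13.5, 10 and 12.2 CPM in untreated pools. In RVO replicate 2 it was lower than in the other RVO pools and in the range of the control pools (74, 134 and 144 CPM). Bst2, a membrane protein that tethers viruses, rose 47.3-fold and Isg15 17.7-fold. Of 14 genes of antigen presentation, 13 were higher. For class I, H2-D1 had 361 ± 71.8 CPM against 34.6 ± 3.83 CPM and the peptide transporter Tap1 rose 22.9-fold. For class II, Cd74 rose 10.2-fold and H2-Aa 14.1-fold, while their master regulator Ciita, with 0.626 and 0.132 CPM, was not called. H2 genes are near copies of each other, so their values are uncertain. The STAT motif TTCNNNGAA was found in 5 of 15 interferon genes with a window (33.3%) and in 8.26% of all tested genes. That share describes the list and not its response. Irf1, which rose 7.51-fold, is shown as an example at chr11:53769764-53770013, strand +.
Irf1: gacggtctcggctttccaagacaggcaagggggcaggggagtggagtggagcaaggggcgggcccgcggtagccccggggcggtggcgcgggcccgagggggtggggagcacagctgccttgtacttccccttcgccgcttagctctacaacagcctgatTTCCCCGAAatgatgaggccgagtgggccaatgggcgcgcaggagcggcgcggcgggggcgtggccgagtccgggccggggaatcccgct

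Complement genes changed in part. C3, the central component, had 164, 79.5 and 121 CPM in RVO pools and 3.36, 2.97 and 3.21 CPM in untreated pools. C4b rose 14.1-fold, C1ra 18.8-fold and the inhibitor Serping1 5.24-fold. The regulators Cd55 and Cd59a were not called (-1.04 and -0.26). In all, 8 of 17 were higher and 0 lower. Without RVO replicate 2, 9 were higher and 4 lower.

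Genes of regulated cell death were higher in 13 of 19 cases. Mlkl and Ripk3, which execute necroptosis, were at least 9.57-fold and 3.64-fold higher, and both had at most 1 count in any untreated pool. Tnfrsf1a, a receptor of TNF, rose 7.97-fold, Bbc3, a p53 target that promotes apoptosis, 7.84-fold and Casp8 4.56-fold. Bcl2, which protects from apoptosis, had -0.60, but the call was lost with the trend removed. It was one of 2 cell death genes called lower. Without RVO replicate 1 or 3 or untreated replicate 1 or 2, 1 was lower.

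Cells under protein or oxidative stress switch on chaperones and detoxifying enzymes. Of 20 genes of the unfolded protein response, 15 were higher. Hspa5, the main chaperone of the endoplasmic reticulum, had 1489.9, 657 and 1032 CPM in RVO pools and 335, 335 and 320.2 CPM in untreated pools. The RVO values spread widely, with replicate 2 lowest, and all lay above the control pools at 434, 439.7 and 416 CPM. Derl3 rose 29.5-fold and Atf5 8.11-fold. Atf6 and Dnajb9 were not called (-0.07 and 0.14). Of 16 targets of NRF2, the sensor of oxidative stress, 11 were higher. Hmox1, heme oxygenase, which degrades heme (chr8:75093621-75100589), had 778, 426 and 495 CPM in RVO pools, 112, 65.3 and 23.1 CPM in control pools and 5.09, 4.92 and 6.57 CPM in untreated pools. Slc7a11, the cystine transporter, rose 6.63-fold and Txnrd1 4.7-fold, while Nqo1 had -0.08 and was not called. Gclc was one of 2 called lower, at -0.42, though not with the trend removed (-0.31), and 1 was called lower without RVO replicate 3 or any 1 untreated pool. The metallothioneins Mt1 and Mt2, which bind zinc, rose 5.48-fold and 9.09-fold. Mt3 was not called (0.47). Among heat shock genes Bag3 rose 7.16-fold, while Hspa8 and Hsp90aa1 were not called (-0.02 ± 0.10 and -0.18 ± 0.07).

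Hypoxia genes were higher in part. Of 18 HIF targets outside glycolysis, 12 were higher and 0 lower, with a median of 1.18. Car9, a carbonic anhydrase used as a marker of hypoxia, had 10.7, 5.82 and 7.56 CPM in RVO pools and at most 2 counts in any untreated pool, at least 29.4-fold higher. Adm, adrenomedullin, rose 32.3-fold, Egln3, the HIF hydroxylase, 4.96-fold, and the lactate exporter Slc16a3 5.3-fold. Vegfa, the main growth factor of vessels (chr17:46016993-46032369), had 407, 315 and 256 CPM in RVO pools and 156, 157 and 156 CPM in untreated pools, and the control pools stayed near the latter at 149, 125 and 169.8 CPM. Bnip3, Pdk1, Ankrd37, Kdm3a, P4ha2 and Mxi1, also known HIF targets, were not called, with log2 fold changes from -0.27 to 0.57. Hif1a itself fell by 0.88 and Epas1 (HIF-2alpha) was not called (-0.19). The core of the hypoxia response element, ACGTG, was in the window of 12 of 15 genes of the list (80%), against 28.1% of all tested genes and 24.8% of genes over 4-fold higher. The list was chosen as known HIF targets and its share counts members called or not. It therefore describes the list and not the response at d2. Egln3 is shown at chr12:54203875-54204124, strand -.
Egln3: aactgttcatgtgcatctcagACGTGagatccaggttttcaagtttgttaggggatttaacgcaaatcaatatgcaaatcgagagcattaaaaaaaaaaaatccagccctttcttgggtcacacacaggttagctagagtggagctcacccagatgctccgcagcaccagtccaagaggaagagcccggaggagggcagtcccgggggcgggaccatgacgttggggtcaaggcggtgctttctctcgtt
Of 19 glycolysis genes, 12 were higher and 2 lower, with a median of 0.46, while 8 were higher with the trend removed and 7 without untreated replicate 1 or 2. Hk1, a hexokinase, rose from 1114 ± 29 to 2265 ± 126 CPM, and Ldha 1.62-fold. Ldhb and Pfkm had -1.01 and -0.58, and 1 glycolysis gene was lower without RVO replicate 1 or 3 or any 1 untreated pool. Hk2, the hexokinase enriched in photoreceptors, was not called (0.24).

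Vessel genes changed in part. Of 20 endothelial genes, 9 were higher and 0 lower, with a median of 0.66, and 6 were higher with the trend removed. Esm1, a marker of tip cells, had 6.85, 2.42 and 6.11 CPM in RVO pools and at most 2 counts in untreated pools, at least 18.8-fold higher. Vwf rose 3.26-fold and Cdh5 2.84-fold. Kdr and Flt1, the VEGF receptors, were not called (0.24 and 0.03), nor were the tight junction genes Cldn5 and Ocln (0.32 and -0.46). Without RVO replicate 3, untreated replicate 1 or untreated replicate 2, 5 endothelial genes were higher, and without RVO replicate 2, 2 were lower. Among pericyte and smooth muscle genes, Acta2, the contractile actin, had 24.9, 60.3 and 45.2 CPM in RVO pools and 6.63, 4.92 and 5.07 CPM in untreated pools. Rgs5 and Abcc9, markers of pericytes, fell 2-fold and 4.02-fold, and neither call remained with the trend removed. In that fit, 1 other gene of the list was called lower. Without RVO replicate 3 or any 1 untreated pool, 1 pericyte gene was lower. Of the vessel growth factors, Pgf rose 9.44-fold, Apln 11.1-fold and Angptl4 11.4-fold, whereas Angpt1, Angpt2 and Vegfc were not called (-0.84, -0.20 and -0.32).

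Most genes that break down or rebuild the matrix were higher. Of 15 proteases and inhibitors, 12 were higher. Besides Plaur, its ligand Plau rose 24.9-fold and Mmp12, the metalloelastase of macrophages, 17.4-fold. Mmp3 was at least 41.4-fold higher. Of the tissue inhibitors, Timp1 was at least 164-fold higher, while Timp2 and Timp3 were not called (0.16 and 0.19), and Timp3 was called with the trend removed (0.43). Of 16 matrix genes, 13 were higher: Fn1 rose 3.93-fold, Col4a1, of the basement membrane of vessels, 4.68-fold, and Fbln2 30.4-fold.

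Genes of the cell cycle were higher in part, with 11 of 21 higher and 1 lower. Mki67 had 2.45, 5.05 and 1.8 CPM in RVO pools and at most 1 count in any untreated pool, at least 11.4-fold higher, and Top2a was at least 15.3-fold higher. RVO replicate 2 was the highest for both. Cdkn1a, the p21 inhibitor of the cycle, rose 15.6-fold and Myc 34.7-fold. Ccna2 was the cycle gene called lower (-0.88). Spc25, a kinetochore gene that is no member of the list, had 7.2, 15.2 and 16 CPM in RVO pools and 244, 234 and 209 CPM in untreated pools, the second largest fall of all genes with counts in each group.

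Ribosomal protein genes were mostly higher. Of 38 cytosolic ribosomal protein genes, 25 were higher and 1 lower, with a median of 1.03, and 21 were higher with the trend removed. Rps24, the lower one, went from -0.66 to -0.27 and lost its call. Rplp1 had 475 ± 23.4 CPM against 173 ± 54.5 CPM. These genes have many pseudogenes, so single values are uncertain. Clock and cholesterol genes were called about as often as all genes (52.1%). Of 18 clock genes, 7 were lower and 4 higher. Hlf fell 2.72-fold and Ciart rose 2-fold. Of 20 cholesterol genes, 7 were lower, among them Hmgcs1, 2-fold, and 2 higher. Scaled by library size only, 3 were lower. Without RVO replicate 3, untreated replicate 2 or untreated replicate 3, 1 was higher, and without untreated replicate 1, 0. Genes often used as references were among those called. Of 12, 7 were higher and 4 lower, or 5 and 1 with the trend removed. Actb, beta-actin, had 956, 725 and 919 CPM in RVO pools and 332, 296 and 301 CPM in untreated pools, a rise of 1.52 ± 0.11. Hprt fell by 0.69, a call lost with the trend removed (-0.23), and Polr2a differed by 0.05 ± 0.10.

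By gene type, 29.4% of 14090 protein-coding genes were higher and 24.7% lower. Of 379 lincRNA genes, 10.6% were higher and 31.7% lower, and of 432 antisense genes 9.26% and 23.1%. The lincRNA gene BC055402 had 1.18, 1.57 and 1.8 CPM in RVO pools and 22.2, 23.6 and 19.3 CPM in untreated pools, among the 10 largest falls. Of these 10, Gm10857, Gm44240 and Gm14292 carry only a model name (Gm44240 was not called with the trend removed, at -2.90), mt-Te is a mitochondrial tRNA gene and Hapln1, which links the matrix of the nets around neurons, fell 12-fold. Reads of antisense genes cannot be told apart from those of their partners where strand was not used in counting, which is not stated.

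Genes of tissue other than retina varied between pools. Of 15 lens genes tested, 11 were higher. Of the 10 largest fitted rises among genes with over 3 counts in an untreated pool, 7 were lens crystallins, and the others were Bcl3, Lcn2 and Hmox1. The lens genes summed to 536, 9247 and 1092 CPM in RVO pools, 4485, 739.6 and 440.4 CPM in control pools and 71.7, 78.9 and 46.6 CPM in untreated pools. Cryaa, a lens crystallin, had 104, 2614 and 199.7 CPM in RVO pools and 10.5, 14.2 and 1.36 CPM in untreated pools, so that replicate 2 made up most of the mean. Without RVO replicate 2, 15 lens genes were higher, and without any 1 untreated pool, 1. Red cell genes had a sum of 197, 49.8 and 79.5 CPM in RVO pools and 14.7, 14.8 and 15.6 CPM in untreated pools. Hbb-bs and Hbb-bt were called higher. Without RVO replicate 2, 5 red cell genes were higher, without RVO replicate 1, 4, and without untreated replicate 1 or 3, 1. Of 10 platelet genes, 5 had enough counts to be tested, and 3 of these were higher. Pf4 and Ppbp rose at least 21.4-fold and 12.7-fold, but both were tested only because of their RVO counts. Itga2b was also higher, while Gp1ba and Gp1bb were not called. Of 13 pigment cell genes, Rpe65 was lower at -1.22 and Rdh5 higher at 0.78, and neither call remained with the trend removed. In that fit, 2 other pigment cell genes were called higher and 0 lower. With 1 pool left out, 0 to 4 pigment cell genes were higher and 0 to 3 lower. Of 9 fibroblast and sclera genes, 5 were higher, with Col3a1 at 3.22, and 1 was lower, or 0 without RVO replicate 3 or untreated replicate 1. The part of these tissues in the other results was not tested.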

How the data were processed

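Whole retinas were pooled, 6 per sample, and sequenced by the authors. The deposited file holds raw counts per gene, which the authors made with STAR 2.5.2b (Gencode vM11) and featureCounts of Subread 1.5.1, as given in the study's methods and the submitters' processing notes. Handling of strand and of reads with several matches is not given in the sources used here. Of 48679 names, 92 were spike-ins with 0 counts, which were left out, and 46366 matched the GENCODE vM21 annotation (GRCm38), used for coordinates and for the GC content and length of the longest transcript.

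Counts of the 3 RVO and 3 untreated samples were filtered (filterByExpr), scaled by TMM and tested with edgeR 4.0.16 (R 4.3.3) by the quasi-likelihood test, two-sided, without covariates. The p-values were adjusted over all genes tested (Benjamini-Hochberg), and 0.01 was the threshold for a call. Standard errors are the log2 fold change divided by the square root of F. CPM were scaled by TMM factors of all 9 samples, so that control pools could be shown, and GC gaps used log2(CPM + 0.5). Where each untreated sample had at most 3 counts, the fold is a lower bound against 3 counts per library. Such bounds cover counting error only. The pools of a group are replicates by label, so p-values measure the spread between pools. For trend-removed values, the trends of counts with GC content and length were taken out of each library before the fit. The alternatives were DESeq2 1.42.0, other scaling and filters, a replicate block, all 9 samples, a threshold of 0.05 and each sample left out.

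The gene lists (46) and the comparison itself were chosen with earlier results of these data known. Beside list members, the text names genes with the 10 largest fitted and CPM changes in each direction, and the 5 genes with the most counts among those at or under 3 counts in untreated samples. Other names, such as Spink13, were chosen after their values were seen. Tested on simulated data with 16130 genes, of which 192 were changed, the fit recovered 76% of 2-fold and 91% of 4-fold changes with 0 false calls. In the data 52.1% of genes were called, so the simulation does not measure the error at such a share. Same-numbered RVO and untreated samples are other mice and their deviations correlated at -0.05, 0.12 and 0.05, so they were not treated as pairs. Promoters were taken from RefSeq (GRCm38.p6), cut at the first base annotated by either RefSeq or GENCODE. Some list members are counted in their lists but not reported here by name.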

Additional observations from a re-analysis of the deposited data

How the results depend on the processing

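The counts of 4492 genes higher and 4037 lower stayed within 1.5 times under each alternative run, and no gene was called in the opposite direction except in the fit with the GC and length trend removed (74 genes). With 1 pool left out, 3298 to 5436 genes were higher and 2710 to 5055 lower, lowest without untreated replicate 2 and highest without RVO replicate 2. DESeq2 called 4713 higher and 4138 lower, and the fit to all 9 samples 4841 and 4922. Scaling by library size only moved the median of all genes by 0.22 on the log2 scale and raised the share of calls that were higher from 52.7% to 68.5%, with 5967 higher and 2741 lower. With the replicate block, 4288 were higher and 3928 lower. The numbers name pools of other mice and do not pair them. Of 65 list counts, the block moved 2 by over 1.5 times, among them red cell genes higher from 2 to 4. Library size scaling moved 13, the trend removal 9, and leaving out RVO replicate 3 or untreated replicate 1, 2 or 3 moved 12, 16, 12 and 11. The cause of these shifts was not tested, beyond the smaller number of pools where 1 was left out.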
